A study of Gallus gallus with 4 samples.

Results

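Messenger RNA of the proteasome and of the ubiquitin-conjugating (E2) enzymes was measured in cultures of chick embryonic neural retina, the layer of the eye that gives rise to neurons and Müller glia. A gene was included where a probe of the array carries a RefSeq transcript of a chicken gene whose symbol begins with PSMA, PSMB, PSMC, PSMD, PSME or UBE2, leaving out UBE2C. This rule found 42 genes, 26 of the proteasome and 16 E2 genes, among 5382 genes with a name on the array. Another 25 genes in the gene table have symbols that fit this rule, among them PSMB2, PSMB3, PSMB4, UBE2M and UBE2T. They had no probe under a gene name and were not analysed here. The DAPT group was exposed to 10 µM DAPT, an inhibitor of γ-secretase, which is the protease that releases the active part of the Notch receptor. The DMSO group received the same volume of the solvent alone. Both groups were made from retinas of embryonic day 8 (stage 33), dissociated with trypsin and grown in medium with fetal bovine serum, and the compound or solvent was renewed with the medium between day 2 and the harvest of RNA at day 12. There were 2 samples per group, hybridised to 1 array apiece. The labels name no separate embryos or platings, so p-values here reflect how far duplicate samples lie apart, and that distance could be purely technical.

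The proteasome is the barrel-shaped protease that degrades proteins tagged with ubiquitin. Its core particle is built of stacked rings of α (PSMA) and β (PSMB) subunits, with the active sites inside the β rings, and its regulatory particle holds a ring of ATPases (PSMC) and further subunits (PSMD) that bind, unfold and feed in the substrate. E2 enzymes take activated ubiquitin from an E1 enzyme and, with an E3 ligase, pass it to the substrate, and some E2 enzymes carry relatives of ubiquitin such as NEDD8 instead. These genes are active in nearly every cell type, and lens fibre cells and photoreceptors are among the cells in which ubiquitin-dependent degradation has been studied in the eye.

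The arrays and the cells on them set the frame for these values. Between 87.7% and 89.3% of non-control spots were well above background on the DAPT arrays, against 85.7% and 87.2% on the DMSO arrays, and the replicate numbers corresponded to slides, with a DAPT and a DMSO array of the same number sharing a slide. Marker genes of several cell types moved with the treatment: 9 of 10 tested lens fibre markers and 11 of 13 proliferation markers were higher in DAPT, and 10 of 12 fibroblast markers and 7 of 7 photoreceptor markers were lower. Their summed linear signals, in units of each array's 75th percentile, were 477.9 and 505.6 in DAPT against 11.4 and 8.74 in DMSO for lens fibre markers, and 308.1 and 319.4 in DAPT against 577.1 and 679.6 in DMSO for fibroblast markers. The fibroblast sums were weighted by VIM, the brightest marker of that list. VIM and TAGLN, the 2 tested fibroblast markers not called, lay at log2 fold changes (DAPT over DMSO) of 0.37 and 0.88. The median of the fibroblast list was -3.36. MIP, the lens fibre marker not called, lay at -0.11 (adjusted p = 0.885 in limma), where the median of the lens list was 6.20. PCNA and CCNA2, the proliferation markers not called, lay at 0.17 and 0.31. Proliferation markers summed to 50.8 and 52.1 in DAPT, against 26.9 and 29.2 in DMSO, and photoreceptor markers to 10.6 and 12.1 in DAPT, against 29.8 and 26.9 in DMSO. Of 6 tested neuron markers 2 were higher and 3 lower, with sums of 19.6 and 18.8 in DAPT against 67.2 and 54.4 in DMSO. Of 5 interferon response genes 0 were higher and 2 lower, and of 6 microglia markers 1 was higher and 0 lower. Of 7 tested markers of neural retina 2 were higher and 0 lower by limma (PAX6 and RLBP1), and all 7 were well above background on all 4 arrays. What a change in cell makeup may have contributed to the values of the proteasome and E2 genes was not tested. In such bulk samples fewer cells of a type and less RNA per cell cannot be told apart.

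The proteasome and E2 genes differed little between DAPT and DMSO cultures. With an adjusted p under 0.05 in limma as the threshold, 1 of the 42 genes (2.38%) was higher in DAPT and 0 were lower, beside 12.4% of all 32288 features higher and 13.1% lower (25.5% in either direction). Among the 5107 tested features with a gene name these shares were 14.4% and 13.8%. A change of at least 2-fold with an adjusted p under 0.05 was found for 4.86% of all features higher and 7.1% lower, and for 0 members. Without adjustment for the number of features, 7 members were higher and 1 was lower at a p under 0.05 in limma. The share of all features at that unadjusted threshold is not given here. It cannot be under the 25.5% called with adjustment, so these 8 members are no sign of an excess. The gene that passed was UBE2R2, which encodes a relative of the E2 enzyme CDC34 that works with cullin-based ligases. All 42 genes were well above background on all 4 arrays, so none had passed the filter through 1 group alone. Their log2 fold changes, DAPT over DMSO, lay between -0.39 and 0.46, which is 0.761-fold to 1.38-fold, with standard errors of 0.098 to 0.18. The range of the members' fold changes held 65.8% of all features.

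The 95% interval of the fold change lay inside a 2-fold change in either direction for 42 of the 42 genes (100%), which held for 70.5% of all features. The lowest bound was -0.67 and the highest 0.82 on the log2 scale. Inside the narrower limits of a 1.5-fold change lay the intervals of 32 of the 42 genes (76.2%) and of 36.7% of all features. These are intervals for each gene by itself on its brightest probe, from 2 arrays per group and without correction for the number of genes. Of the 42 genes, 40 had a mean level above the array's 75th percentile. Among the 8771 features at such a level 24.3% were called, and among the 40 members 1 was (2.5%). The interval lay within a 2-fold change for 81.4% of those bright features and within a 1.5-fold change for 47.7%. Fold changes of the members had an SD of 0.19 across genes (0.14 for proteasome genes and 0.25 for E2 genes), against 0.82 for all features. The SD over the bright features alone is not given here, so this comparison sets mostly bright genes against features of every level. Calls at this threshold began at an absolute log2 fold change of 0.40 in the fit, a size that 2 members exceeded, and 63.1% of all features lay below it.

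**Figure D1:**
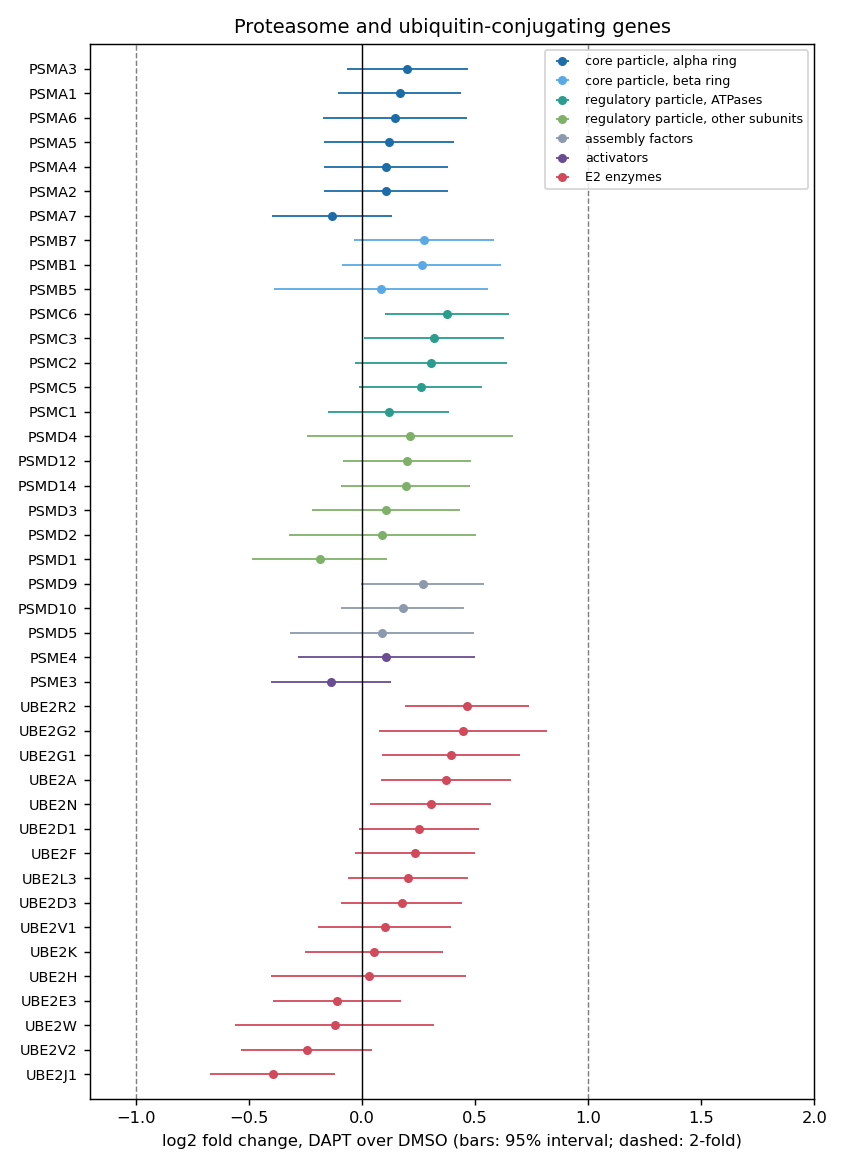
Log2 fold change, DAPT over DMSO, of each of the 42 genes by role, with its 95% interval from limma (2 arrays per group) and dashed lines at a 2-fold change. All intervals lie between -0.67 and 0.82, and UBE2R2 at 0.46 is the gene that passed the adjusted threshold.

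More of the genes lay above 0 than below. Positive fold changes were found for 35 of 42 genes (83.3%), 23 of 26 in the proteasome and 12 of 16 among E2 genes, against 56.9% of all features and 61.5% of the bright ones. The median log2 fold change was 0.16 for proteasome genes (0.18 on slide 1 and 0.14 on slide 2) and 0.19 for E2 genes (0.18 on slide 1 and 0.20 on slide 2), beside 0.061 for all features and 0.090 for the bright ones. The 2 DAPT arrays lay above both DMSO arrays for 26 of 42 genes and below both for 6, where 36.9% and 28.8% of all features did so (65.6% in either direction). The size of this lean depended on how the arrays were scaled: with quantile normalization 30 genes and 57.2% of all features were positive, and the proteasome median was 0.043, under the 0.065 of all features and above the 0.032 of the bright ones, while the E2 median was 0.11. With normexp background correction and quantile normalization 29 genes and 56.7% of all features were positive, and the proteasome median was 0.053, beside 0.038 for all features and 0.034 for the bright ones. With the authors' values 33 genes and 49.6% of all features were positive, and the proteasome median was 0.091, beside -0.0036 for all features and 0.025 for the bright ones. The authors' values differ from the deposited intensities by 1 factor per array. Members and all features therefore shifted alike, and the gap between their medians stayed as in the main fit.

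**Figure D2:**
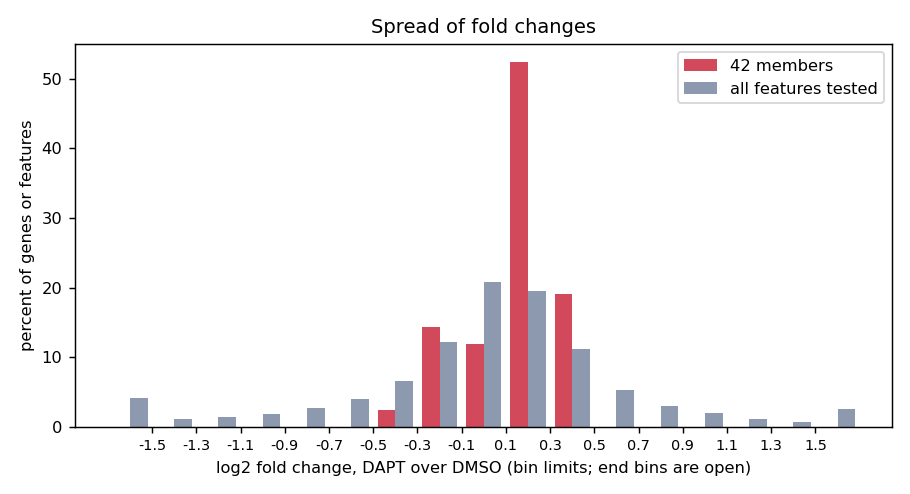
Percent of the 42 genes and of all 32288 features in each bin of log2 fold change, DAPT over DMSO, with open bins at both ends. The bin from 0.1 to 0.3 holds 22 of the 42 genes, and no member lies outside -0.5 to 0.5.

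In the α ring of the core particle, 7 genes were measured and none passed (adjusted p = 0.218 to 0.510 in limma, 0 at an unadjusted p under 0.05). PSMA3 was the highest of them, with log2 signals relative to each array's 75th percentile of 5.12 and 5.14 in the DAPT cultures, against 4.91 and 4.95 in the DMSO cultures. Its DAPT arrays lay above its DMSO arrays, and the log2 fold change was 0.20 ± 0.099 (± SE, 95% interval -0.064 to 0.47). PSMA7 was the lowest, at 2.98 and 2.98 in the DAPT cultures, against 3.10 and 3.13 in the DMSO cultures. It was the α subunit gene whose DAPT arrays both lay below its DMSO arrays, with a log2 fold change of -0.13 ± 0.098 (95% interval -0.39 to 0.13). The other α subunit genes, PSMA1, PSMA6, PSMA5, PSMA4 and PSMA2, were at 0.17, 0.15, 0.12, 0.11 and 0.11 in log2 fold change, each with its DAPT arrays above its DMSO arrays.

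Of the β ring 3 genes were measured, and none passed (adjusted p = 0.163 to 0.774 in limma, 0 at an unadjusted p under 0.05). PSMB7, the subunit with trypsin-like activity, had 3.94 and 3.99 in the DAPT cultures, against 3.61 and 3.78 in the DMSO cultures. The groups did not overlap, at a log2 fold change of 0.27 ± 0.12 (95% interval -0.035 to 0.58). PSMB5, which holds the chymotrypsin-like site that proteasome inhibitors such as bortezomib bind, had 2.96 and 3.22 in the DAPT cultures, against 2.83 and 3.18 in the DMSO cultures. Here the groups overlapped and the arrays of slide 2 were the higher ones in both groups, with a log2 fold change of 0.086 ± 0.18 (95% interval -0.39 to 0.56). PSMB1, a β subunit without an active site, lay at 0.26 ± 0.13, with 0.19 on slide 1 and 0.34 on slide 2.

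The ATPases of the regulatory particle, which unfold the substrate, had the highest median of the proteasome's parts, 0.31 over 5 genes (0.28 on slide 1 and 0.24 on slide 2). None of the 5 passed (adjusted p = 0.0626 to 0.449 in limma), while 2 were higher at an unadjusted p under 0.05, and the DAPT arrays lay above the DMSO arrays in each of the 5. Of all features 36.9% had both DAPT arrays above both DMSO arrays. The share of all features higher at an unadjusted p under 0.05 is not given here. It is at least the 12.4% called higher with adjustment and may be well above that. The 2 genes are therefore not shown to be an excess. PSMC6 had 3.27 and 3.35 in the DAPT cultures, against 2.93 and 2.95 in the DMSO cultures. Its log2 fold change of 0.38 ± 0.10 (adjusted p = 0.0626) was the highest of the proteasome genes, with a 95% interval of 0.10 to 0.65 and 0.35 on slide 1 and 0.41 on slide 2. With the slide as a block in the fit, PSMC6 passed (adjusted p = 0.0317). PSMC1 was the lowest of the ATPase genes, at 5.16 and 5.15 in the DAPT cultures, against 5.01 and 5.06 in the DMSO cultures, a difference of 0.12 ± 0.099. Between them, PSMC3, PSMC2 and PSMC5 were at 0.32, 0.31 and 0.26 (adjusted p = 0.123, 0.155 and 0.143).

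Among the other 6 subunits of the regulatory particle, none passed (adjusted p = 0.246 to 0.724 in limma, 0 at an unadjusted p under 0.05), with a median of 0.15. PSMD4, a receptor for ubiquitin chains, had 0.92 and 1.14 in the DAPT cultures, against 0.64 and 0.99 in the DMSO cultures. Its groups overlapped, the second array was the higher one in each group, and the log2 fold change was 0.21 ± 0.17 (95% interval -0.24 to 0.67). PSMD1, a large scaffold subunit, was at 4.94 and 4.91 in the DAPT cultures, against 5.04 and 5.19 in the DMSO cultures. Both DAPT arrays lay below both DMSO arrays, with a log2 fold change of -0.19 ± 0.11 (95% interval -0.48 to 0.11). PSMD14, the metalloprotease that removes ubiquitin from the substrate, and PSMD12, a lid subunit, were at 0.19 ± 0.11 and 0.20 ± 0.11, with no overlap between groups. PSMD2 and PSMD3, a scaffold and a lid subunit, were at 0.090 ± 0.15 and 0.11 ± 0.12, with overlapping groups.

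PSMD9, PSMD10 and PSMD5 encode assembly factors that hold ATPase subunits while the regulatory particle forms and are not part of the finished complex. PSMD9 had 1.25 and 1.18 in the DAPT cultures, against 0.96 and 0.93 in the DMSO cultures, with a log2 fold change of 0.27 ± 0.10 (adjusted p = 0.131). PSMD5 had 2.05 and 2.33 in the DAPT cultures, against 2.00 and 2.20 in the DMSO cultures, with overlapping groups and a log2 fold change of 0.088 ± 0.15. PSMD10 was at 0.18 ± 0.10, and none of the 3 passed (0 at an unadjusted p under 0.05 in limma). The activator genes PSME3 and PSME4 encode caps that can take the place of the regulatory particle. PSME3 had 3.68 and 3.73 in the DAPT cultures, against 3.85 and 3.84 in the DMSO cultures, a log2 fold change of -0.14 ± 0.099 (adjusted p = 0.378), and the other 3 probes of this gene lay above 0. PSME4 had -3.24 and -2.94 in the DAPT cultures, against -3.26 and -3.15 in the DMSO cultures, and its groups overlapped (0.11 ± 0.15).

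**Figure D3:**
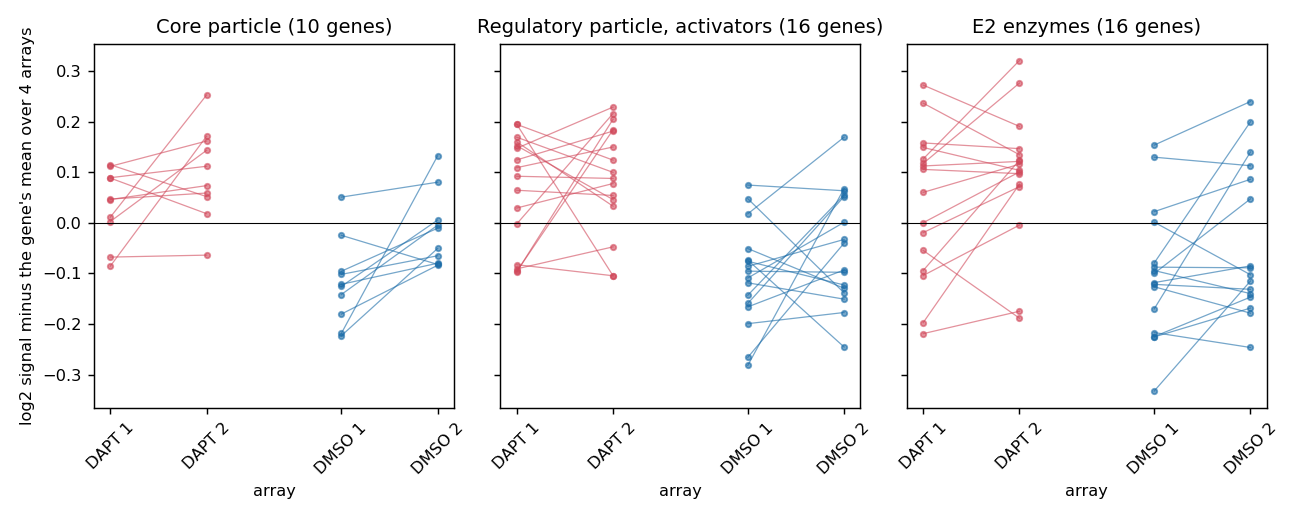
Log2 signal of each gene on each array after subtracting the gene's mean over the 4 arrays, with lines joining the 2 arrays of a group, DAPT in red and DMSO in blue. Most genes lie above 0 on the DAPT arrays and below 0 on the DMSO arrays, by less than 0.35 in all cases.

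Both ends of the range of fold changes were E2 genes. Of 16 measured, 1 was higher and 0 were lower by limma, with 5 higher and 1 lower at an unadjusted p under 0.05. Of all features at least 12.4% were higher and 13.1% lower at that unadjusted threshold, which are the shares called with adjustment. The full unadjusted shares are not given here and may be well above these. The 5 genes higher are therefore not shown to be an excess. UBE2R2 had 1.50 and 1.42 in the DAPT cultures, against 1.01 and 0.98 in the DMSO cultures. The DAPT arrays lay above the DMSO arrays, by 0.49 on slide 1 and 0.44 on slide 2. Its log2 fold change was 0.46 ± 0.10 (95% interval 0.19 to 0.74), which is 1.38-fold, with an adjusted p of 0.0378. This call was lost with each of the 4 arrays left out in turn (adjusted p = 0.0921 to 0.269) and with quantile normalization, normexp and quantile normalization, the authors' values or no filter on dim probes (adjusted p = 0.0515, 0.0536, 0.0588 and 0.0606), while the log2 fold change stayed between 0.40 and 0.51.

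UBE2G2 and UBE2G1 came next. UBE2G2, an E2 enzyme of the degradation of misfolded proteins from the endoplasmic reticulum, had 3.05 and 3.24 in the DAPT cultures, against 2.59 and 2.81 in the DMSO cultures. Its arrays did not overlap between groups, and the log2 fold change was 0.45 ± 0.14 (adjusted p = 0.0862), with 0.46 on slide 1 and 0.44 on slide 2. UBE2G1, which extends ubiquitin chains on substrates of cullin-based ligases, had 2.34 and 2.50 in the DAPT cultures, against 2.00 and 2.05 in the DMSO cultures, a difference of 0.39 ± 0.11 (adjusted p = 0.0723). UBE2A, an E2 enzyme of the RAD6 type that acts on histone H2B, had 0.98 and 0.87 in the DAPT cultures, against 0.51 and 0.59 in the DMSO cultures, a difference of 0.37 ± 0.11 (adjusted p = 0.0727). These 3 genes passed when the slide was a block (adjusted p = 0.0201 for UBE2G2, 0.0306 for UBE2G1 and 0.043 for UBE2A).

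At the other end stood UBE2J1, an E2 enzyme anchored in the membrane of the endoplasmic reticulum that also acts on misfolded proteins there. It had -2.47 and -2.43 in the DAPT cultures, against -2.10 and -2.01 in the DMSO cultures. Both DAPT arrays lay below both DMSO arrays, with a log2 fold change of -0.39 ± 0.10 (95% interval -0.67 to -0.12, adjusted p = 0.0579), with -0.37 on slide 1 and -0.41 on slide 2. With the slide as a block its adjusted p was 0.0278, and with the authors' values it was 0.0375. UBE2J1 and UBE2G2, both of the endoplasmic reticulum pathway, lay on opposite sides of 0, and whether their fold changes differ from each other was not tested.

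UBE2N and its inactive partners UBE2V1 and UBE2V2 form the E2 pairs that build signalling chains which do not target proteins for degradation. UBE2N, the catalytic member, had 3.45 and 3.43 in the DAPT cultures, against 3.16 and 3.11 in the DMSO cultures, a difference of 0.30 ± 0.099 (adjusted p = 0.0964). UBE2V1, the partner in NF-κB signalling, was at 0.10 ± 0.11 with overlapping groups. UBE2V2, the partner in DNA damage tolerance, had 0.56 and 0.42 in the DAPT cultures, against 0.74 and 0.72 in the DMSO cultures, so that its DAPT arrays lay below its DMSO arrays, with a log2 fold change of -0.24 ± 0.11 (adjusted p = 0.18). UBE2D1 and UBE2D3, which serve many E3 ligases, were at 0.25 ± 0.099 and 0.18 ± 0.10, with no overlap. UBE2F, an E2 enzyme for NEDD8, and UBE2L3, which works with HECT and RBR ligases, were at 0.23 ± 0.099 and 0.20 ± 0.098, also with no overlap. UBE2K, which builds chains that mark proteins for degradation, UBE2H, the E2 enzyme of the CTLH ligase, and UBE2W, which tags the amino terminus of proteins, were at 0.052 ± 0.11, 0.030 ± 0.16 and -0.12 ± 0.16, each with overlapping groups. UBE2E3 was at -0.11 ± 0.11, with its DAPT arrays below its DMSO arrays.

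For some genes the value depended on which of its probes was read. The 42 genes had 103 probes, and of the 33 genes with more than 1 probe, 30 had all probes on the same side of 0. With all probes tested, a setting added after the values were seen, 10 of the 103 probes were higher and 1 was lower (10.7%), against 26.4% of all 38422 probes. These 11 probes belonged to 6 genes. UBE2R2, the gene called above, had 1 probe that passed, at 0.46, and another at 0.44 that did not (adjusted p = 0.0347 and 0.0571 in limma). All 4 probes of UBE2G2 lay above 0, at 0.45 on the probe used above and 0.42, 0.85 and 0.83 on the others, of which the last pair passed (adjusted p = 0.0107 and 0.0122). For UBE2G1 the brightest probe lay at 0.39 and the other 3 at 0.44, 0.56 and 0.58, all 3 of which passed. UBE2N had 2 probes that passed, at 0.54 and 0.44, beside its brightest probe at 0.30 and another at 0.20. UBE2V2 lay below 0 on all 4 probes, from -0.24 on the brightest to -0.65 on another, which passed (adjusted p = 0.0269). PSME3 had probes on both sides, with the brightest at -0.14, another at 0.041 and a pair that passed at 0.49 and 0.50. PSMD1 also had both signs, at -0.19 on 2 probes and 0.16 on the third, and UBE2K had 0.052 and -0.011.

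**Figure D4:**
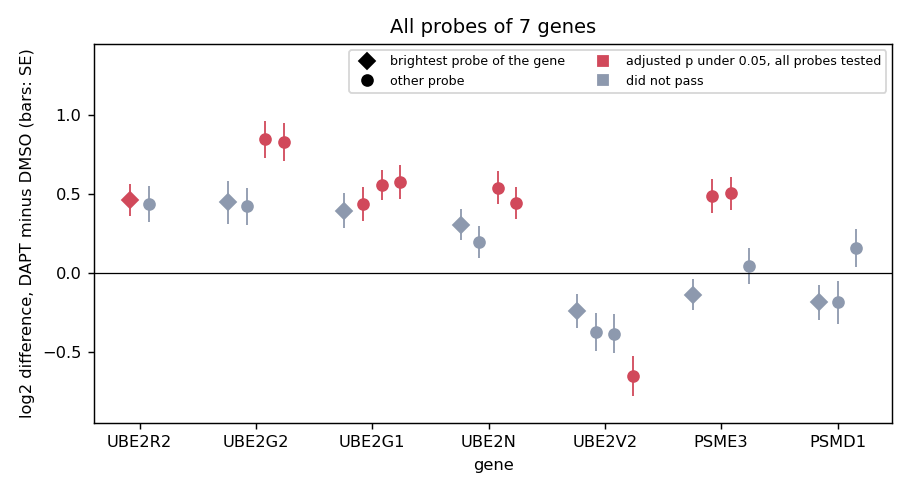
Log2 difference, DAPT minus DMSO, of every probe of 7 genes with its SE, from the fit of all probes. Diamonds mark the brightest probe, used elsewhere in the text, and red marks the probes that passed. A pair of probes of UBE2G2 lies at 0.83 and 0.85 and its brightest probe at 0.45, while PSME3 has probes on both sides of 0.

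With the slide as a block, which is the same as a block for the replicate number, 5 members were higher (UBE2R2, UBE2G2, UBE2G1, UBE2A and PSMC6) and 1 was lower (UBE2J1), beside 21.2% of all features higher and 18.6% lower in that fit. Slide 1 and slide 2 gave the same sign for all members except UBE2H (0.076 on slide 1 and -0.016 on slide 2) and UBE2V1 (-0.0011 on slide 1 and 0.20 on slide 2).

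Further genes of the pathway were taken from lists of its other parts, beside the same 12.4% of all features higher and 13.1% lower. NAE1, a subunit of the E1 enzyme for NEDD8, was at a log2 fold change of 0.37 ± 0.099 (adjusted p = 0.0598, and 0.0327 with the slide as a block).

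Of 7 measured genes for ubiquitin and its relatives, 1 was higher and 0 were lower. URM1, a ubiquitin-like protein that also modifies transfer RNA, had 2.18 and 2.32 in the DAPT cultures, against 1.36 and 1.65 in the DMSO cultures, a difference of 0.75 ± 0.15 (adjusted p = 0.0275). Its other probe lay at 0.14, and the mean of the probes did not pass. The call was also lost without DAPT replicate 1, DAPT replicate 2 or DMSO replicate 1 (adjusted p = 0.104, 0.167 and 0.0687). UBB, a precursor of ubiquitin, was at 0.071 ± 0.11, and UFM1, a ubiquitin relative, at -0.41 ± 0.11, and neither passed (adjusted p = 0.685 and 0.061). With the slide as a block UFM1 was lower (adjusted p = 0.0258).

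Among 10 measured assembly factors and partners of the proteasome, 0 were higher and 0 lower in the unblocked fit and 2 were higher with the block, with a median of 0.19. VCP, the ATPase that extracts ubiquitinated proteins from membranes and complexes, was at 0.26 ± 0.098 (adjusted p = 0.131), and its cofactor NSFL1C at 0.41 ± 0.10 (adjusted p = 0.053, and 0.0286 with the slide as a block). PSMF1, an inhibitor of the proteasome, was at 0.23 ± 0.14, and ADRM1, a ubiquitin receptor, at 0.12 ± 0.17.

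Of 7 measured transcription regulators and their processing factors, 2 were lower and 0 higher, with a median of -0.28, and with the slide as a block 3 were lower (NFE2L1 in addition) and 1 was higher (MAFG, 0.36 ± 0.10, adjusted p = 0.0343 with the block). MAFK had 0.96 and 1.096 in the DAPT cultures, against 1.83 and 2.24 in the DMSO cultures, and MAFF had 2.55 and 2.43 in the DAPT cultures, against 3.18 and 3.22 in the DMSO cultures; both encode small MAF proteins, which pair with the NFE2L factors on DNA. The log2 fold changes were -1.004 ± 0.18 and -0.71 ± 0.11 (adjusted p = 0.0212 and 0.0149), and both calls were lost without DAPT replicate 1 (adjusted p = 0.101 for MAFK and 0.0851 for MAFF) and without DAPT replicate 2 (0.0864 and 0.137), that of MAFF also without DMSO replicate 2 (0.0527). NFE2L1, the factor that raises proteasome genes when the proteasome is inhibited, had 2.97 and 3.06 in the DAPT cultures, against 3.30 and 3.45 in the DMSO cultures. Its DAPT arrays lay below its DMSO arrays, with a log2 fold change of -0.36 ± 0.11 (adjusted p = 0.0907, and 0.0344 with the slide as a block), with its 4 probes between -0.36 and -0.0056.

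Of 15 measured deubiquitinases, 1 was higher and 0 were lower. USP28, a deubiquitinase of the MYC and p53 pathways, had 0.69 and 0.72 in the DAPT cultures, against -0.084 and -0.15 in the DMSO cultures, a difference of 0.82 ± 0.10 (adjusted p = 0.00872), and the call was lost without DAPT replicate 1 (adjusted p = 0.0714) or DAPT replicate 2 (0.0877). UCHL1, the deubiquitinase of neurons, was at -0.29 ± 0.17, with -0.51 on slide 1 and -0.072 on slide 2. Of 13 measured E3 ligases and their scaffolds, 1 was lower and 0 were higher, and with the slide as a block 1 was lower and 2 were higher. The genes higher with the block were DDB1, an adaptor of cullin-based ligases, at 0.61 ± 0.16 (adjusted p = 0.0141 with the block), and ANAPC5, a subunit of the anaphase-promoting complex, at 0.46 ± 0.12 (adjusted p = 0.0265 with the block). Without the block their adjusted p-values in limma were 0.0575 and 0.0564. The 4 probes of DDB1 lay between 0.16 and 0.61. The gene that was lower was MDM2, the ligase that acts on p53, with -0.35 and -0.042 in the DAPT cultures, against 0.94 and 1.30 in the DMSO cultures and a log2 fold change of -1.32 ± 0.19 (adjusted p = 0.0127, and 0.0549 without DAPT replicate 1), named after its value was seen.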

How the data were processed

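Total RNA of 2 DAPT and 2 DMSO cultures was hybridised to 1-colour Agilent arrays, with 100 ng of RNA labelled with Cy3 per the labels' protocols. Agilent Feature Extraction 11.5.1.1 produced the deposited intensities, linear and background-subtracted, per the file headers. A table of values from the authors multiplies these intensities by 1 factor per array (1.46 and 1.51 in DAPT, 1.41 and 1.50 in DMSO), not centred, with column medians of 349.8 and 335.9 in DAPT and 380.4 and 359.4 in DMSO, and what set the factors is unknown.

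Control spots and spots flagged as outliers (8 and 4 in DAPT, 7 and 4 in DMSO) were left out, and no spot was saturated. From each log2 signal the 75th percentile of its array was subtracted, and spots of a probe were averaged. Genes were named by matching RefSeq accessions to the RefSeq gene table for GRCg7b, from which only names were taken, since the array's own annotation is of another build (11935 of 43603 probes matched). Each named gene was represented by its probe with the highest mean signal. Features that both arrays of a group (1 group sufficed) measured well above background were tested with limma 3.58.1 in R 4.3.3 (lmFit and eBayes, Benjamini-Hochberg over all 32288 features, threshold 0.05), without a block, as the labels state no pairing. Arrays with the same replicate number share a slide per the file headers, and across features the differences between replicates in DAPT and in DMSO correlated at 0.583. A block for the slide was an alternative, as were other background corrections, scalings, filters, probes and priors, each array left out, and a 2-fold change as well. With an array left out, the lone array of its group is assumed to vary like the other group. Normexp ran on median spot and background signals. The test was tried on simulated data in which far fewer features were changed than were called in these data. There its calls had the right sign, but it missed most of the changes put in. The adjusted p depends on the share of features that change, so this rate of misses may not hold for these data. A gene that missed the threshold is not shown to be unchanged.

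Every gene of the rule found on the array is named, with values on every array for genes past the threshold and for the highest and lowest of each role, and up to 4 called genes of each pathway list, apart from items that are not reported here. UBE2A, UBE2G1, UBE2G2, UBE2N and UBE2V2 were given array by array after their values were seen, and the pathway genes that did not pass were named after theirs were. The members and all lists were chosen with earlier results of these data known. No sequences were given for these probes, so none are printed. The number of arrays limits the precision.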

Additional observations from a re-analysis of the deposited data

How the results depend on the processing

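The small size of the differences was the stable result: the 95% interval lay within a 2-fold change for all 42 genes under the background corrections, scalings, filters, probe means, prior and block tried, and for 41 or 42 with an array left out. These intervals read each gene by its brightest probe or by the mean of its probes. Other single probes were not counted in this way. A pair of UBE2G2 probes lay higher, at log2 differences of 0.85 ± 0.12 and 0.83 ± 0.12. The count of genes called was not stable. Beside 1 gene higher in the fit of the report, 0 were higher with quantile normalization, normexp and quantile, the authors' values, no filter or a 2-fold change as well, 3 with normexp and the percentile or probe means, 6 with a trended robust prior, 5 with the replicate block, and 0 to 0 with each array left out in turn. Genes lower numbered 1, in place of 0, with the authors' values, the trended robust prior and the replicate block. Beside these counts, 25.5% of all features were called in either direction in the fit of the report. The share was 23.4% with normexp and the percentile, 28.9% with the trended robust prior and 39.8% with the replicate block. With quantile normalization it was 25.3%, with normexp and quantile 22.7%, with the authors' values 24.9% and with no filter 18.3%. With a 2-fold change as well it was 12%. The share with probe means is not given here. All features called numbered 8224, against 12864 with the replicate block, 3861 with a 2-fold change as well and 3067 to 6224 with an array left out, the lowest without DAPT replicate 2 and 3429 without DAPT replicate 1. The proteasome median of 0.16 was 0.043 with quantile normalization, 0.053 with normexp and quantile, 0.091 with the authors' values, 0.20 with median scaling and 0.14 to 0.20 with an array left out. The E2 median of 0.19 was 0.11 with quantile normalization, 0.080 with normexp and quantile, 0.12 with the authors' values, 0.15 with normexp and the percentile, 0.14 with probe means and 0.23 with median scaling. Median scaling and the authors' values change each array by 1 factor, so there all features shifted alike. The median over all features was 0.061 in the fit of the report, 0.11 with median scaling and -0.0036 with the authors' values. The cause of the shifts in the other settings was not tested. The count of positive members ran from 29 to 36. Testing all probes, added after seeing the data, gave 1 gene higher (UBE2G1) and 0 lower, by the rule that most of a gene's probes pass. UBE2R2 was not called by that rule, as 1 of its 2 probes passed. The share of all features called by that rule is not given here. Of the pathway genes, URM1 was lost with probe means (adjusted p = 0.0595).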
